A study of Homo sapiens with 12 samples.

Results

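The mRNAs of 5 fatty acid-binding protein genes, *FABP3*, *FABP4*, *FABP5*, *FABP6* and *FABP7*, were followed in A375 cells, an established human metastatic melanoma line, after activation and blockade of the nuclear receptor PPARγ. The 5 genes were taken by name from a table of read counts for 23705 genes. Cells in DMEM with 10% serum received DMSO alone (vehicle), rosiglitazone (RGZ, a PPARγ agonist) at 5 μM, T0070907 (an antagonist of the same receptor) at 2 μM, or the 2 together, for 24 h. Each of the 4 conditions had 3 libraries, 1 from each of 3 independent experiments, and within an experiment the RNA of technical replicates had been pooled, so every condition is a state of 1 cell line in culture. The library totals ran from 8319455 to 11375227 counts, with medians of 8411073 for vehicle, 9874966 for RGZ, 10822352 for T0070907 and 9327546 for the combination.

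Fatty acid-binding proteins are small cytoplasmic barrels that hold a fatty acid or a related lipid and carry it between membranes, enzymes and the nucleus. Each member carries the name of a tissue in which it is known. FABP3 is the heart and muscle form, FABP4 the adipocyte and macrophage form and a textbook PPARγ target gene, FABP5 the epidermal form, FABP6 the bile acid carrier of the ileum, and FABP7 the form of brain and radial glia, also known from melanoma. PPARγ pairs with a retinoid X receptor (RXR) on DNA and is itself opened by fatty acids, so the carriers stand both upstream and downstream of it. The comparisons ask which carrier genes RGZ changed and whether T0070907 took that change away, which is how the study singled out PPARγ-regulated genes.

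At baseline, *FABP5* was the most abundant of the 5 and *FABP4* was barely detected. Levels between genes are given as CPM (counts scaled to library size) per kb of the longest annotated transcript. In vehicle, *FABP5* stood at 8.88 ± 0.290 CPM per kb (SD, n = 3), *FABP6* at 5.02 ± 1.04, *FABP7* at 2.07 ± 0.405, *FABP3* at 1.39 ± 0.495 and *FABP4* at 0.124 ± 0.00302. In this order only *FABP7* and *FABP3* lay within their summed SDs, with libraries from 1.83 to 2.54 and from 0.821 to 1.72 CPM per kb. The level of *FABP5* was about the middle of the transcriptome, as high as or higher than 52.9% of 12905 tested genes with a known length, and that of *FABP4* as high as or higher than 0.380%.

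With RGZ the order was *FABP4* at 271 ± 135 CPM per kb (SD, n = 3), *FABP5* at 10.7 ± 1.44, *FABP6* at 3.91 ± 0.178, *FABP3* at 1.44 ± 0.833 and *FABP7* at 0.829 ± 0.506. The libraries of *FABP3* and *FABP7* overlapped here, and those of the other neighbours in the order did not. *FABP4* then lay as high as or higher than 98.6% of tested genes. The level of *FABP4* moved from the bottom of the 5 genes to the top. Per kb of the shortest protein-coding transcript, *FABP7* stood at 4.21 ± 0.823 CPM in vehicle and *FABP3* at 1.61 ± 0.574, and with RGZ they stood at 1.68 ± 1.03 and 1.67 ± 0.966, so which of them was the lower with RGZ depended on the length used.

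**Figure D1:**
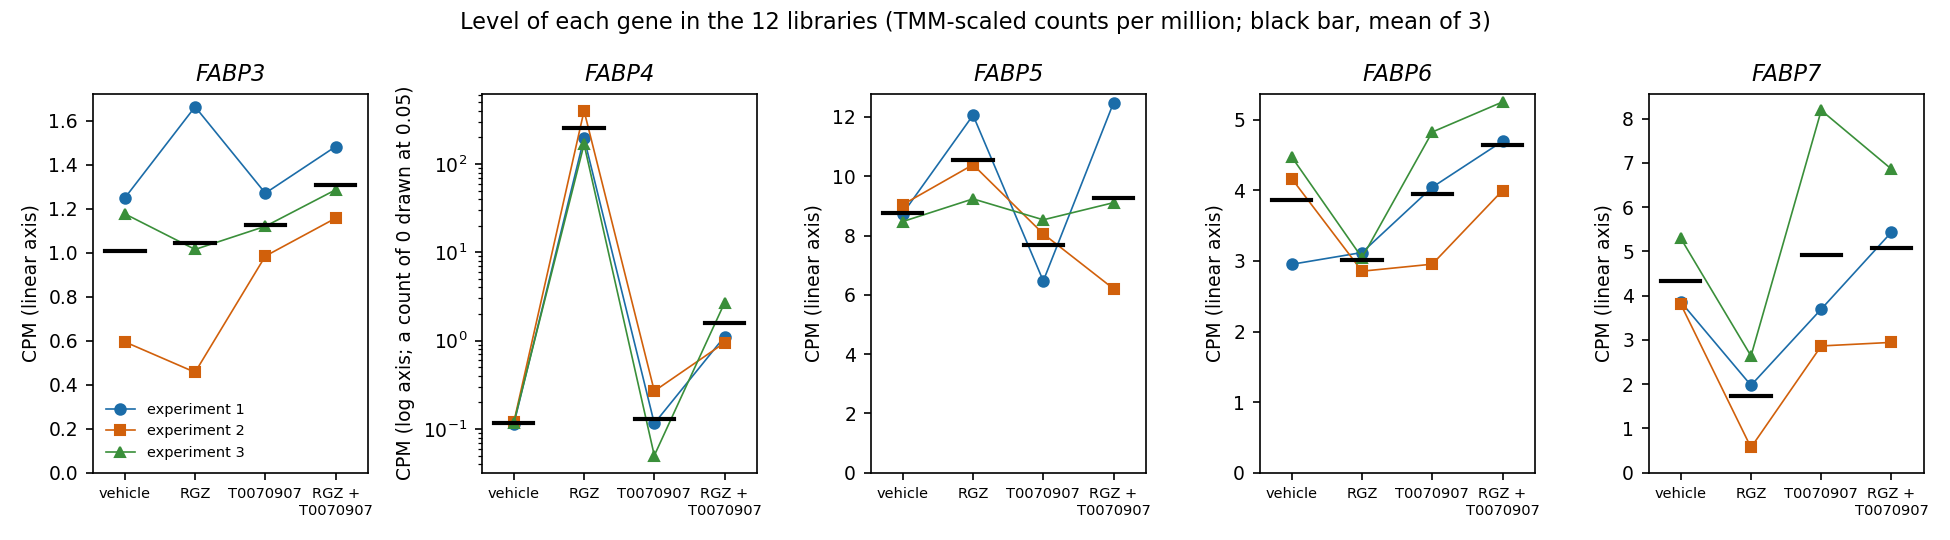
Level of each gene in CPM (y axis, linear except for *FABP4*, which has a log axis with its count of 0 drawn at 0.05) in vehicle, RGZ, T0070907 and the combination (x axis). Points are single libraries, lines join libraries of 1 experiment and black bars are means of 3. *FABP4* stands between 167 and 401 CPM with RGZ and at or under 2.68 CPM elsewhere, and *FABP7* has its lowest library of each experiment with RGZ.

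*FABP4* (Entrez Gene 2167, chromosome 8) encodes the adipocyte carrier. It was counted 1, 1 and 1 times in the vehicle libraries of experiments 1, 2 and 3 and 1895, 3513 and 1648 times in the RGZ libraries. On the CPM scale that was 0.114, 0.119 and 0.118 against 197, 401 and 167. The groups lay far apart. The fitted log2 fold change was 10.94 ± 0.60 (SE), adjusted p = 6.12e-06 by edgeR (quasi-likelihood test, Benjamini-Hochberg over 13522 tested genes), and no tested gene had a larger log2 fold change. *FABP4* passed the filter on low counts through its RGZ libraries. Because vehicle held only 3 counts in all, the size of the change is poorly fixed. The ratio of depth-scaled sums was 2142, with an exact 95% interval of 733 to 10389 that covers counting error only. *FABP4* was 1 of 5 carrier genes called in this comparison, where 1.24% of all tested genes were called.

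The 3 experiments gave *FABP4* ratios of RGZ over vehicle of 1735, 3371 and 1422. The RGZ library of experiment 2 was 2.20 times the mean of the other RGZ libraries for *FABP4*, while the median of that ratio over the 128 genes called higher with RGZ was 1.07, and 6 of the 128, *FABP4* included, had a ratio as high as that of *FABP4*.

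With T0070907 alone *FABP4* was counted 1, 3 and 0 times. Both this group and vehicle lie at or under 3 counts per library, so no fold change is given. A count of 3 corresponds to between 0.259 and 0.371 CPM in these libraries, and a lower level than in vehicle could not have been detected at this depth.

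With both compounds *FABP4* was counted 9, 9 and 25 times, or 1.11, 0.947 and 2.68 CPM. Each of these libraries lay above every vehicle and T0070907 library and far under every RGZ library. Against RGZ, *FABP4* fell by 7.31 ± 0.43 on the log2 scale (SE, adjusted p = 1.35e-05 by edgeR), to 0.564%, 0.236% and 1.60% of the RGZ level within the 3 experiments. It was the 1 carrier gene called of 5, beside 1.24% of all tested genes. The comparison shares its RGZ libraries with that of RGZ against vehicle.

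What remained of *FABP4* with both compounds, set against the controls, depended on the fit. Against vehicle, 43 counts stood over 3, a ratio of 13.7 with an exact 95% interval of 4.38 to 68.9 for counting error only, and the ratio was 9.79, 7.96 and 22.8 in the 3 experiments. The log2 fold change of 3.63 ± 1.24 (SE) had an adjusted p of 0.453 by edgeR, and was 2.99 without combination replicate 3. It was 3.62 ± 0.86 with adjusted p = 0.0989 when the experiment number entered the model as a block, and then ran from 2.73 without combination replicate 3 to 4.40 without combination replicate 2. In this comparison 0% of tested genes were called by edgeR in either fit, with 1438 genes without the block and 2868 with it at an unadjusted p under 0.05. DESeq2 with the block called 161 genes, *FABP4* among them with adjusted p = 0.0363. Against T0070907 alone the log2 fold change was 3.52 ± 1.14 with adjusted p = 0.261 by edgeR, where 0.037% of genes were called. Leaving out 1 library moved this value between 2.88 without combination replicate 3 and 4.67 without T0070907 replicate 2, a library that holds 3 of the 4 *FABP4* counts of its group. With the block it was 3.54 ± 0.79 with adjusted p = 0.0147, where 8.76% were called, and DESeq2 without the block gave adjusted p = 0.0036, where 0.643% were called.

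The interaction asks whether the RGZ effect differed with and without T0070907. For *FABP4* it was -7.42 ± 2.85 on the log2 scale (SE), with adjusted p = 1.00 by edgeR, where 0% of tested genes were called and 406 had an unadjusted p under 0.05. Leaving out 1 library moved it from -8.06 without combination replicate 3 to -6.26 without T0070907 replicate 2, and from -8.29 to -6.61 with the block. With the block it was -7.38 ± 2.02 with adjusted p = 0.173, where 0.281% of genes were called. DESeq2 without the block gave -7.45 with adjusted p = 1.18e-05, and *FABP4* was then the 1 gene called, 0.0074% of those tested. The vehicle and T0070907 groups held 3 and 4 counts of *FABP4* in all.

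**Figure D2:**
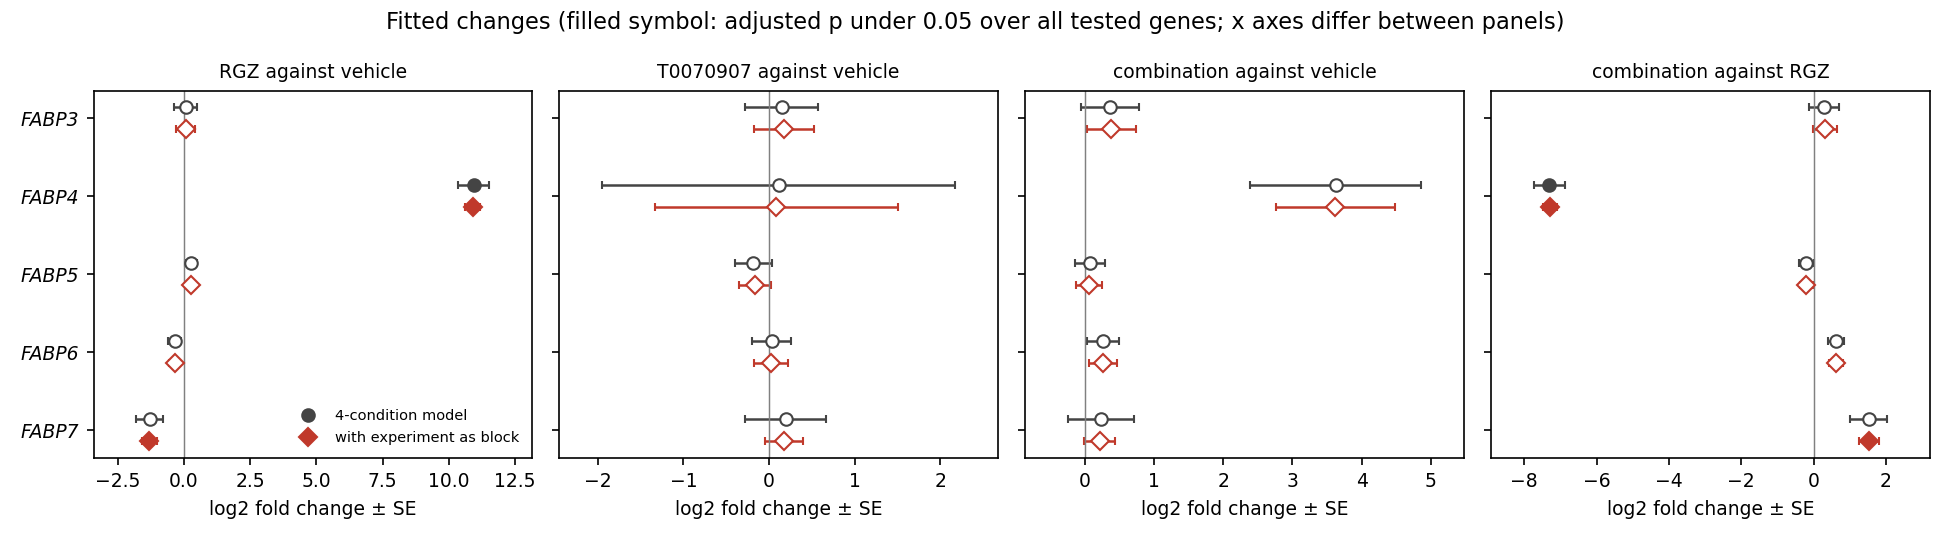
Fitted log2 fold change ± SE (x axis, whose range differs between panels) of each gene (y axis) in 4 comparisons of 3 against 3 libraries. Grey circles are from the model of the 4 conditions, red diamonds from the model with the experiment as a block, and filled symbols have an adjusted p under 0.05. *FABP4* is filled at 10.94 for RGZ against vehicle and at -7.31 for the combination against RGZ, and *FABP7* is filled only with the block.

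*FABP7* (Entrez Gene 2173, chromosome 6) encodes the brain carrier. It was the only gene of the 5 other than *FABP4* called for RGZ in any fit, each time only with the experiment as a block, and it moved the other way. It was counted 34, 32 and 45 times in vehicle and 19, 5 and 26 times with RGZ, which made 3.86, 3.81 and 5.30 CPM against 1.98, 0.571 and 2.64 CPM. Every RGZ library was under every vehicle library, and within experiments the ratio was 0.512, 0.150 and 0.498. The share of all tested genes whose groups lay apart in this way was not counted, here or for the other carrier genes. The sums gave a ratio of 0.410, with an exact 95% interval of 0.288 to 0.578 for counting error only.

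The call for *FABP7* rested on whether experiments were paired. Without the block its log2 fold change was -1.30 ± 0.52 (SE) with adjusted p = 0.38 by edgeR, and was not called. With the block it was -1.32 ± 0.28 with adjusted p = 0.00467, and 2 of 5 carrier genes were called where 9.3% of all tested genes were. Experiments accounted for 34.4% of the variance of its log2 CPM and conditions for 55.6%, leaving 10.0%, whereas for *FABP4* conditions accounted for 98.6%.

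With T0070907 alone *FABP7* was counted 32, 32 and 95 times, or 3.70, 2.86 and 8.19 CPM, and the group overlapped vehicle. With both compounds it was counted 44, 28 and 64 times, or 5.44, 2.94 and 6.86 CPM. All 3 of these libraries were above all 3 RGZ libraries, and the ratio within experiments was 2.75, 5.16 and 2.60. The log2 fold change against RGZ was 1.53 ± 0.51 (SE) with adjusted p = 0.233 by edgeR, and 1.54 ± 0.27 with adjusted p = 9.06e-04 under the block, where 11.4% of tested genes and 2 of 5 carrier genes were called. Against vehicle the combination gave 0.23 with adjusted p = 0.915. The interaction for *FABP7* was 1.33 ± 0.70 with adjusted p = 1.00, and 1.36 ± 0.36 with adjusted p = 0.152 under the block, so that the RGZ effect was not shown to differ with and without T0070907.

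Markers of glia, where *FABP7* is best known, had their lowest range with RGZ too, and the ranges overlapped. Their summed level was 24.0 to 66.6 CPM in vehicle, 11.7 to 38.6 with RGZ, 37.0 to 102 with T0070907 and 28.9 to 65.1 with both. Of the 5 glial markers 3 exceeded 3 counts in some library, and *AQP4* was at 0 throughout. Their part in the *FABP7* result was not tested. *RXRG*, which encodes the γ form of RXR, had 8.18 CPM in vehicle and 3.51 with RGZ, with adjusted p = 0.642 by edgeR without the block and 8.24e-04 with it. *SMPDL3A*, a tested neighbour of *FABP7* on the chromosome that encodes a phosphodiesterase, had a log2 fold change of -0.42 ± 0.24 with RGZ and adjusted p = 0.58, or 0.159 with the block.

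The 250 bases before the RefSeq start of *FABP7* are shown because *FABP7* was the carrier gene with lower levels under RGZ than under vehicle in all 3 experiments and without overlap. They lie at chr6:122779466-122779715 on the plus strand of GRCh38.p14, and the capitals mark matches with 1 mismatch to the nuclear receptor half-site AGGTCA, read on either strand.
FABP7: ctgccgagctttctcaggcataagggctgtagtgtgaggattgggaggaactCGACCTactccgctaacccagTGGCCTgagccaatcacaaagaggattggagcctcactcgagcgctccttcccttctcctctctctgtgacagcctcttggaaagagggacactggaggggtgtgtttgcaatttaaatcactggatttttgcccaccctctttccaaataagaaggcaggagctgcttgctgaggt
Such near matches are common, with at least 1 in 85.5% of 35116 promoters in the same table. *FABP7* held 2 of them, *FABP3* 2 and *FABP6* 6. No exact half-site and no pair of half-sites 1 base apart (a direct repeat, allowing 1 mismatch in all) was found in the 300-base windows of these 3 genes. Over all promoters 13.8% held an exact half-site and 0.336% such a repeat.

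*FABP5* (Entrez Gene 2171, chromosome 8) encodes the epidermal carrier. It was counted 77, 76 and 72 times in vehicle, 116, 91 and 91 times with RGZ, 56, 90 and 99 times with T0070907 and 101, 59 and 85 times with both. In CPM, vehicle held 8.74, 9.04 and 8.47 and RGZ 12.1, 10.4 and 9.24, so the groups did not overlap, and the ratios within experiments were 1.38, 1.15 and 1.09. How often groups did not overlap among all tested genes was not counted. The log2 fold change of 0.27 ± 0.22 (SE) had an adjusted p of 0.72 by edgeR and of 0.423 with the block, and was not called. The combination spread from 6.21 to 12.5 CPM, across the whole range of the other conditions. Part of *FABP5* cannot be told from its copies, since 31.3% of the 937 windows of 50 bases in its longest transcript occur in 8 other annotated genes. Of 15 annotated *FABP5* pseudogenes only *FABP5P3* was in the table, with at most 2 counts in a library. The other 4 carrier genes shared no such window.

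*FABP6* (Entrez Gene 2172, chromosome 5) encodes the ileal bile acid carrier. An antisense gene, *FABP6-AS1*, is annotated beside it. Whether their exons overlap was not examined, and since the strand setting is not given, reads from any overlap could not be told apart. *FABP6* was counted 26, 35 and 38 times in vehicle and 30, 25 and 30 times with RGZ, or 2.95, 4.16 and 4.47 against 3.12, 2.85 and 3.05 CPM, and these groups overlapped. With both compounds it was counted 38, 38 and 49 times, or 4.69, 4.0 and 5.25 CPM, above every RGZ library. The log2 fold change of the combination against RGZ was 0.62 ± 0.23 (SE) with adjusted p = 0.278 by edgeR and 0.0566 with the block, short of the threshold in both. RGZ against vehicle gave -0.36 ± 0.23 with adjusted p = 0.641. Defining markers of ileal enterocytes were at 0 in vehicle and at most 0.114 CPM in sum with RGZ.

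*FABP3* (Entrez Gene 2170, chromosome 1), the heart form, was measured at low depth, with 4 to 16 counts in any library. It was counted 11, 5 and 10 times in vehicle and 16, 4 and 10 times with RGZ, or 1.25, 0.595 and 1.18 against 1.66, 0.457 and 1.02 CPM. The groups overlapped and experiment 2 had the lowest library in every condition. Experiments accounted for 57.8% of the variance of its log2 CPM and conditions for 15.0%. Its log2 fold change was 0.06 ± 0.43 (SE) with adjusted p = 0.978 by edgeR. A change larger than that error could also have been missed, since *FABP7* at -1.30 ± 0.52 was not called in this fit.

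T0070907 alone changed none of the carrier genes past the threshold. For *FABP3*, *FABP5*, *FABP6* and *FABP7* the log2 fold changes against vehicle ran from -0.18 to 0.20, with adjusted p of 1.00 by edgeR, where 0.0074% of tested genes were called. With the block the adjusted p ran from 0.880 to 0.994 for these 4 genes, where 0.91% were called.

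The make-up of the carrier mRNA followed from these levels and is a description. In vehicle *FABP5* made up 51.0% ± 4.37 of the summed CPM per kb of the 5 genes (SD, n = 3), *FABP6* 28.6% ± 4.47, *FABP7* 11.8% ± 1.59, *FABP3* 7.97% ± 2.95 and *FABP4* 0.711% ± 0.0366. With the shortest protein-coding transcripts the vehicle share of *FABP7* was 18.2% ± 2.23. With RGZ *FABP4* made up 93.3% ± 2.87, between 91.5% and 96.6%, and *FABP5* 4.19% ± 1.58. With both compounds *FABP5* led again at 43.5% ± 6.95 and *FABP4* made up 7.72% ± 3.69. The summed level was 17.5 ± 1.15 CPM per kb in vehicle, 288 ± 134 with RGZ, 17.0 ± 2.98 with T0070907 and 21.4 ± 5.08 with both.

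**Figure D3:**
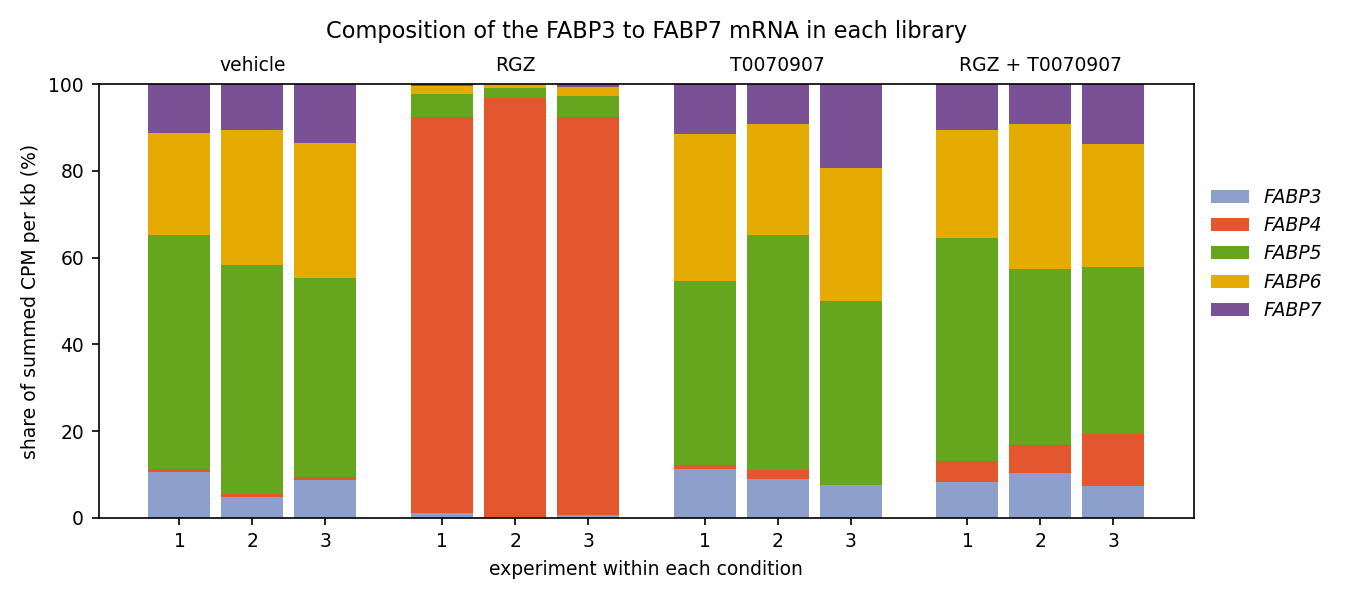
Share of the summed CPM per kb of the 5 genes (y axis, %) in each of the 12 libraries, grouped by condition and numbered by experiment (x axis). Each bar is 1 library. *FABP4* fills 91.5% to 96.6% of the RGZ bars, and *FABP5* is the largest part of every other bar.

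Of 11 further members of the intracellular lipid-binding protein family 1 passed the filter on low counts, *CRABP2*, which carries retinoic acid to its receptor. It had 2.95 CPM in vehicle and 2.63 with RGZ and a log2 fold change of -0.16 with adjusted p = 0.924 by edgeR. *RBP5* had 4 to 12 counts per library, close to *FABP3*. *CRABP1* and *RBP7* reached 3 counts, *RBP2* 2, and *FABP1*, *PMP2* and *FABP9* 1 count in any library, and *FABP2* and *FABP12* were at 0 in all 12. *FABP9* and *FABP12* lie near *FABP4*, 1 on each side and each the second annotated gene from it, and both stayed at 0 or 1 count in every library.

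The genes that *FABP4* most resembled over the 12 libraries, by Pearson correlation of log2 CPM, were *CREB3L3* (r = 0.976), *ALAS1* (0.972) and *C11orf86* (0.969). *CREB3L3*, a transcription factor of hepatic lipid metabolism, had 0.508 CPM in vehicle, 12.2 with RGZ, 0.245 with T0070907 and 1.38 with both. *ALAS1*, the first enzyme of heme synthesis, had 98.8, 134, 92.9 and 106 CPM in the same order. *FABP7* was most like *C5orf58* (0.959), *GNG7* (0.955) and *EXTL1* (0.954). *EXTL1*, a glycosyltransferase of heparan sulfate, had 38.4, 22.4, 49.3 and 41.6 CPM. *FABP6* was most like *IFT43* (0.937), *NRG4* (0.924) and *C2orf81* (0.888), *FABP5* most like *GLOD4* (0.897), *HNRNPL* (0.869) and *MRPL46* (0.863), and *FABP3* most like *FLRT1* (0.920), *CCDC184* (0.90) and *ZNF268* (0.847). These libraries share conditions and experiments, and other measures of likeness named mostly other genes, except that rank correlation kept 2 of the 3 for *FABP5*.

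The genes that handle the same fatty acids were set beside the carriers. Among receptors that carried ligands reach, none of 10 tested was called for RGZ against vehicle by edgeR, and the median log2 fold change was -0.10 beside -0.01 over all tested genes. *PPARG* itself had 82.2 CPM in vehicle and 72.1 with RGZ, with adjusted p = 0.573. Among genes of uptake and activation 2 of 15 were called, both higher, beside 1.24% of all tested genes, with a median of 0.23. These were *CD36*, a membrane fatty acid transporter, which rose from 0.115 to 3.80 CPM (adjusted p = 0.00724) and, being under the level of 3 counts in vehicle, passed the filter through RGZ and has no well-fixed fold, and *ACSL3*, which activates fatty acids to acyl-CoA and rose by 0.96 (adjusted p = 0.00375).

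Of the genes of storage and release 3 of 15 rose and none fell, beside the same 1.24%, with a median log2 fold change of 0.11. *PLIN2*, a lipid droplet coat protein, rose by 2.62 from 386 to 2374 CPM, *PLIN4*, another, rose by 4.13 from 7.35 to 129 CPM, and *AGPAT2*, an enzyme of phosphatidic acid synthesis, rose by 0.62. Of the genes of oxidation 6 of 19 rose and none fell, again beside 1.24%, with a median of 0.24. Among them *PDK4*, which restrains pyruvate dehydrogenase, rose by 2.72, *SLC25A20*, the carnitine carrier, by 0.94, *ACAA2* by 0.83, *CPT1A*, the gate of mitochondrial import, by 0.78 and *ACADVL* by 0.50. With the block the calls for RGZ were 6 higher and 1 lower of 15 for uptake, 5 higher of 15 for storage, 9 higher of 19 for oxidation and 1 lower of 10 for receptors, *RXRG*, where 9.3% of all tested genes were called. For the combination against RGZ, edgeR called 3, 2 and 5 genes of the uptake, storage and oxidation lists, all lower, beside 1.24% of all tested genes. With the block these were 4, 5 and 8 lower, 1 gene of the uptake list and 2 receptor genes being higher, where 11.4% of all tested genes were called.

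**Figure D4:**
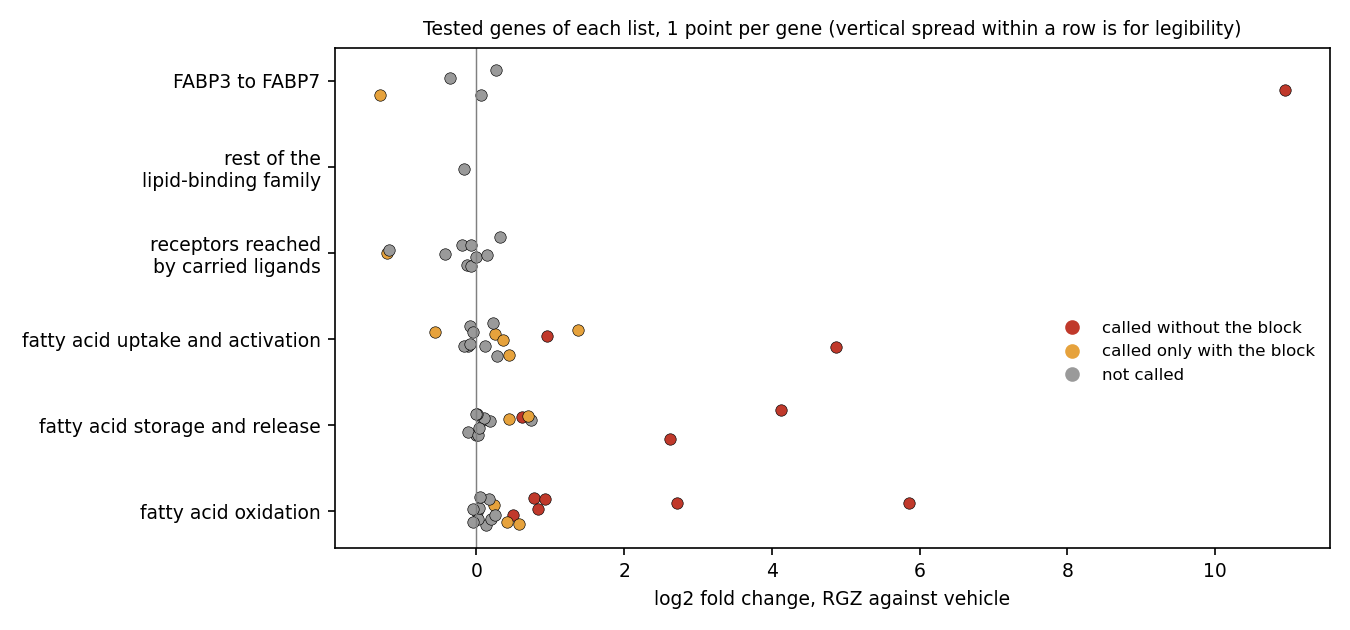
Log2 fold change of RGZ against vehicle (x axis) for the tested genes of each list (y axis, rows), 1 point per gene. Red points had an adjusted p under 0.05 by edgeR without the block, orange points only with the block, and grey points in neither. *FABP4* is the point at 10.94 and *FABP7* the orange point at -1.30, and the red points of the uptake, storage and oxidation rows are all above 0.

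The cells carried the marks of their label in part. The melanocyte lineage genes *SOX10* and *MITF* had 1558 to 4984 and 240 to 666 counts, while the pigment gene *TYR* was at 0 in all libraries and *DCT* at most 1. The 9 lineage markers summed to 291 to 532 CPM in vehicle and 239 to 458 with RGZ, 339 to 574 with T0070907 and 300 to 527 with both, so that they too had their lowest range with RGZ, as *FABP7* did, and their part in its result was not tested. Of 7 adipocyte markers 2 exceeded 3 counts in some library, *ADIPOQ* and *CIDEA* were at 0 throughout, and the summed level was 1.48 to 1.67 CPM in vehicle and 1.04 to 4.91 with RGZ. The macrophage markers summed to 48.0 to 81.8 CPM in vehicle and 59.9 to 105 with RGZ, those of endothelium to 15.8 to 24.4 and 15.3 to 25.9, those of keratinocytes to 87.9 to 114 and 85.9 to 99.1, and those of muscle to 1.06 to 9.40 and 0.711 to 8.33. These ranges overlapped between vehicle and RGZ for each of these lists. In bulk RNA, fewer cells expressing a gene and less RNA per cell cannot be told apart.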

How the data were processed

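RNA was extracted with Trizol, and TruSeq RNA libraries were sequenced on an Illumina HiSeq machine. The authors deposited raw read counts per gene (Entrez identifiers) for 12 libraries, with hg19 as the build in the submitters' processing notes. The aligner, the counter and the strand setting are not given in the sources used here. Of 23705 identifiers 23538 matched a RefSeq symbol, and no column belonged to another sample. The 5 genes, the gene lists and the tests were chosen with earlier results of these data known.

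Counts were scaled by TMM, filtered with filterByExpr (13522 genes) and tested with edgeR 4.0.16 (R 4.3.3) by the quasi-likelihood test in a model of 4 conditions over all libraries, with Benjamini-Hochberg adjustment and a threshold of 0.05. SEs are the log2 fold change divided by the root of F. The study text gives no statistical design for this experiment. Alternatives were limma 3.58.1 (voom), DESeq2 1.42.0, other filters and scaling, thinning, and leaving out each library. The labels number the experiments, and the design names 3 independent ones, so the experiment served as a block in a second fit. Libraries of the same experiment deviated together from their condition means (mean r = 0.554, lowest 0.0793, 18 pairs). Subtracting condition means makes the deviations of different experiments opposed, so their mean r of -0.270 (36 pairs) is not separate evidence. Without the block, p-values weigh a change against the spread between experiments in 1 cell line. With the block, they weigh it against the spread left after differences between experiments are taken off. Intervals and the floor of 3 counts cover counting error only, since PCR duplicates cannot be told apart here. The fits were tested on simulated data.

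Genes named were the 5 carriers, their pseudogenes and neighbours, the other family members, the genes of each list called for RGZ (at most 6), and the 3 genes most like each carrier, and a few genes under this rule are not reported here. *RXRG*, *PPARG* and the markers were named after their values were seen. Promoters came from a RefSeq table (GRCh38.p14), which held *FABP3*, *FABP6* and *FABP7*.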

Additional observations from a re-analysis of the deposited data

How the results depend on the processing

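The calls of *FABP4* for RGZ against vehicle and for the combination against RGZ held in 23 of 23 alternatives each, with log2 fold changes of 10.28 to 11.57 and -8.20 to -6.53. A filter of at least 10 counts in every library leaves *FABP4* out, so 0 carrier genes were called there. In these comparisons 1 carrier gene was called, and 2 with the replicate block by edgeR, limma-voom and DESeq2, the second gene being *FABP7*, where limma-voom called 1220 and 1466 genes in all and DESeq2 900 and 1071. Leaving out 1 library gave 1 without the block, where 45 to 88 and 53 to 130 genes were called in all, and 2 with it, where 717 to 1091 and 856 to 2575 were. *FABP7* was called in both comparisons in 9 of 23 alternatives, all with the block, with adjusted p of 0.00135 to 0.0321 in the first, and in none without it. For the combination against vehicle the count was 0, and 1 with DESeq2 and the block (*FABP4*), with leave-one-out counts of 0 to 1. The 1 there was *FABP4* with the block and without combination replicate 2 (adjusted p = 7.21e-04), where 2594 genes were called, or 19.2% of the number tested with all libraries. For the combination against T0070907 the count was 0, and 1 (*FABP4*) with DESeq2 and with the block by edgeR, limma-voom and DESeq2, with leave-one-out counts of 0 to 2. The 2 were *FABP4* and *FABP5* (adjusted p = 0.0487) with the block and without combination replicate 2, where 3342 genes were called, or 24.7% of that number. For the interaction the count was 0, and 1 (*FABP4*) with DESeq2 and with the block by limma-voom (21 genes in all) and DESeq2 (47), with leave-one-out counts of 0 to 1. The 1 came with the block without combination replicate 1, 2 or 3, where 105, 149 and 39 genes were called. The blocked leave-one-out fits, DESeq2 with the block and the shorter transcript length were added after seeing the data. The block changed no other carrier call. The cause of these differences was not tested.

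Values near 0 changed sign, and of these only *FABP5* against T0070907 was called in any alternative. For RGZ against vehicle *FABP3* was -0.041 with limma-voom, -0.066 with thinned libraries and -0.43 to 0.40 on leaving out 1 library. For T0070907 against vehicle *FABP4* was -0.40 with limma-voom, -0.38 with limma-voom and the block, -0.014 thinned and -1.05 to 0.72 leaving out 1 library, fitted values that carry no fold since both groups are at the floor, and *FABP6* was -0.06 thinned and -0.15 to 0.20. The ranges for the same comparison were -0.12 to 0.33 for *FABP3*, -0.28 to 0.043 for *FABP5* and -0.40 to 0.48 for *FABP7*. They were -0.19 to 0.30 (*FABP5*) and -0.054 to 0.51 (*FABP7*) for the combination against vehicle, and -0.037 to 0.80 (*FABP3*) and -0.46 to 0.032 (*FABP5*) against RGZ. Against T0070907 they were -0.020 to 0.48 (*FABP5*) and -0.25 to 0.63 (*FABP7*). For the interaction *FABP5* was 0.056 thinned and -0.29 to 0.21, and *FABP3* -0.18 to 0.65.

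With the shortest protein-coding transcripts the vehicle shares were 45.0% for *FABP5*, 18.2% for *FABP7* and 0.542% for *FABP4*. With CPM not divided by length they were 23.8% for *FABP7*, 21.3% for *FABP6* and 0.648% for *FABP4*, so that *FABP7* then stood above *FABP6*. Over all genes, RGZ against vehicle had 167 calls by edgeR, 1258 under the block, 302 by DESeq2 and 69 with only the groups compared, and 167, 1545, 313 and 41 for the combination against RGZ. Over all alternatives the count ran from 0 to 123 for T0070907 against vehicle, 0 to 2594 for the combination against vehicle, 0 to 3342 against T0070907 and 0 to 149 for the interaction. Of the 3 genes most like *FABP4* and *FABP7*, 0 were named by rank correlation. Depth limits *FABP3* and *FABP4* outside RGZ most.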
